A study of Mus musculus with 28 samples.

Results

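Cells sense oxygen through a short chain of proteins, and the transcripts of 10 of its genes were followed here in 28 RNA-seq libraries from 3 mouse cell lines. The genes were chosen by name and are those of the hypoxia-inducible factor (HIF) subunits Hif1a, Epas1, Hif3a, Arnt and Arnt2, the prolyl hydroxylases Egln1, Egln2 and Egln3, the ubiquitin ligase subunit Vhl and the asparaginyl hydroxylase Hif1an. All 10 were among the 55536 genes counted. The lines, all labelled wild type, were EO771 (breast cancer cells), C2C12 (muscle cells, used as myotubes) and MLg (lung fibroblasts). Each of 7 groups held 4 libraries: EO771 cells taken from direct co-culture with C2C12 myotubes, EO771 cells from direct co-culture with MLg fibroblasts, EO771 cells alone, C2C12 myotubes co-cultured with EO771, C2C12 myotubes alone, MLg fibroblasts co-cultured with EO771, and MLg fibroblasts alone. All cells were kept in DMEM with fetal bovine serum. The title of the study names hypoxia as a driver of what muscle cells do to the growth of cancer cells, so the question put to these genes was whether co-culture changed their transcripts in each line. The way the lines were parted before extraction, and the oxygen level of the cultures, were not given in the sources used here. Each line is 1 established line, and the labels do not say that the libraries of a group came from separate cultures, so p-values measure only the spread among libraries, which may be technical.

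HIF is a pair of proteins, an alpha subunit (HIF1A, EPAS1, also called HIF2A, or HIF3A) and a beta subunit (ARNT or ARNT2). When oxygen is present, the prolyl hydroxylases EGLN1 (PHD2), EGLN2 (PHD1) and EGLN3 (PHD3) hydroxylate the alpha subunit, VHL binds it and it is degraded. HIF1AN (FIH) hydroxylates an asparagine of the alpha subunit and keeps coactivators off it. These steps act on protein, which was not measured here. EGLN1 and EGLN3 are themselves known HIF target genes, which makes a feedback loop, whereas EGLN2 is not usually listed as one.

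Libraries held between 27.6 M and 96.5 M counts. All counts were even in 5 co-cultured libraries (R3-1, R5-1 and R6-1 of EO771 with C2C12, R5-1 and R6-1 of MLg with EO771), and 41.6% to 44.8% of nonzero counts were odd in the remaining 23. Even in those 23, genes with 2 counts outnumbered genes with 1 count by 1.68 to 2.55 times, so that at low levels a count is not 1 independent fragment. Of the 12 myotube marker genes, all averaged over 1 CPM (counts per M total counts) in C2C12 alone, but their sum ranged widely, between 181 and 3720 CPM. Of the 10 fibroblast markers, 9 averaged over 1 CPM in MLg alone and likewise in C2C12 alone. Of the 8 epithelial markers, 1 (Krt8) averaged over 1 CPM in EO771 alone and Cldn4 had no counts, so most of this list was near absent. Genes specific to the partner line stood at 1.01% ± 0.367 of the partner's level in EO771 with C2C12 and at 1.57% ± 0.389 in EO771 with MLg. EO771-specific genes stood at 4.17% ± 0.854 in C2C12 with EO771 and at 8.47% ± 3.18 in MLg with EO771 (SD, n = 4 each). Sarcomere genes gave a higher C2C12 share in EO771 with C2C12, between 4.55% and 16.6%. In bulk RNA, fewer cells of a type and less RNA per cell cannot be told apart.

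The bases before the transcription start of 9 of the 10 genes were found in the RefSeq promoter table (GRCm38.p6). HIF is known to bind DNA at a short core, and the letters ACGTG or GCGTG were searched for on both strands in the 250 bases before each start. Egln3, Egln1, Hif3a and Vhl are shown because they were higher in EO771 with C2C12 than in EO771 alone, and Hif1a because it is the main alpha subunit in these cells. Capitals mark the matches, and each sequence runs 5′ to 3′ on the gene's strand.

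Egln3: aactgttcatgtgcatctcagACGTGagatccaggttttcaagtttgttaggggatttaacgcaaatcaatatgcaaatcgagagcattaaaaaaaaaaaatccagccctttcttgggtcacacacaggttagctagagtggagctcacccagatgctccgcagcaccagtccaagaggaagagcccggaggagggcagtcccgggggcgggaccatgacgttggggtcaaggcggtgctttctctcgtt

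Egln1: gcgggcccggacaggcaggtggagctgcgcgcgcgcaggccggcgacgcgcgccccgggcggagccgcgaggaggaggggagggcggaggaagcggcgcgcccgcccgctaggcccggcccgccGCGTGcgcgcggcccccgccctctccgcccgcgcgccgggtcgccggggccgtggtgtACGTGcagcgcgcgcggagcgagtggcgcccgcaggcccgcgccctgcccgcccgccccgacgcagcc

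Hif3a: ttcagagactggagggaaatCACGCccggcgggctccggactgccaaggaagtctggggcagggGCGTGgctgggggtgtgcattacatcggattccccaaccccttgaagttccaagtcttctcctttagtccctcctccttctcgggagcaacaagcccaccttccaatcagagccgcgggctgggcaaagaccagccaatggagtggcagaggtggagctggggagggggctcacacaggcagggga

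Vhl: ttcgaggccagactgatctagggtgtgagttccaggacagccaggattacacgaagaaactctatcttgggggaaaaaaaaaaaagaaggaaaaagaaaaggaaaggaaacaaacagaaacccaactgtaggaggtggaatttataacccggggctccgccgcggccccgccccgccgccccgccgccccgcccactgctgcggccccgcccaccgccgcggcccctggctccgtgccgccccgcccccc

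Hif1a: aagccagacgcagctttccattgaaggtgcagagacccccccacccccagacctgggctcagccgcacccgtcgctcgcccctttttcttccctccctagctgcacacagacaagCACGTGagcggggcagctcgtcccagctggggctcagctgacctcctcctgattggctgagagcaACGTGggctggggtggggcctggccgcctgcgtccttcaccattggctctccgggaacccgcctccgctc

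These windows lie at chr12:54203875-54204124 (minus strand) for Egln3, chr8:124949255-124949504 (minus strand) for Egln1, chr7:17062428-17062677 (minus strand) for Hif3a, chr6:113623744-113623993 (plus strand) for Vhl and chr12:73907617-73907866 (plus strand) for Hif1a. Egln3 held 1 match, which begins 229 bases before the start. Egln1 held 2, at 126 and 68 bases, and Hif3a 2, at 230 and 186 bases. Vhl held none. Hif1a held 3, of which those at 135 and 134 bases are the same palindrome CACGTG read on both strands, and the other lies at 70 bases. Among the genes not shown, Arnt held 1, Egln2 held 4 before its first RefSeq start and 1 before its second, and Arnt2 and Hif1an held none. Of all 32851 promoters in the table, 38.6% hold at least 1 of these letter runs in a window of this length, so a match is common.

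In EO771 cells, co-culture with C2C12 went with more transcripts of 2 of the 3 prolyl hydroxylases, of Hif3a and of Vhl, while Hif1a did not pass the test. Of the 9 members tested in EO771 with C2C12 against EO771 alone, 4 rose and none fell at an adjusted p under 0.05 (edgeR's quasi-likelihood test with Benjamini-Hochberg adjustment over all genes). Epas1, the remaining member, had too few counts for a test there. Across all 15794 genes tested in that comparison, 33.0% passed (were called), so the members' 4 of 9 stands near that background. Scaled by library totals alone, or fitted with all 28 libraries, Arnt was called too, at log2 changes of 0.24 and 0.23 (adjusted p = 0.0302 and 0.0401). In EO771 with MLg against EO771 alone, Arnt2 was called higher and Hif3a lower out of 9 tested, where 9.59% of all genes were called. In EO771 with C2C12 against EO771 with MLg, 5 members were higher and 1 lower out of 9, where 27.7% of all genes were called. These EO771 comparisons share libraries and are not independent of each other.

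In the host lines, few members passed. None of the 8 members tested (Hif3a and Epas1 had too few counts) was called in C2C12 with EO771 against C2C12 alone, where 2.68% of all genes were called. None of the 8 reached an unadjusted p under 0.05 with edgeR, and DESeq2 called none. Of 9 members tested (all but Hif3a) in MLg with EO771 against MLg alone, 1 was called higher (Epas1), where 14.7% of all genes were called. Set against each other, the responses of C2C12 and MLg differed in none of 9 members (edgeR), where 1.84% of all genes were called, and neither an unadjusted p under 0.05 nor a DESeq2 call was found for any of them.

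**Figure D1:**
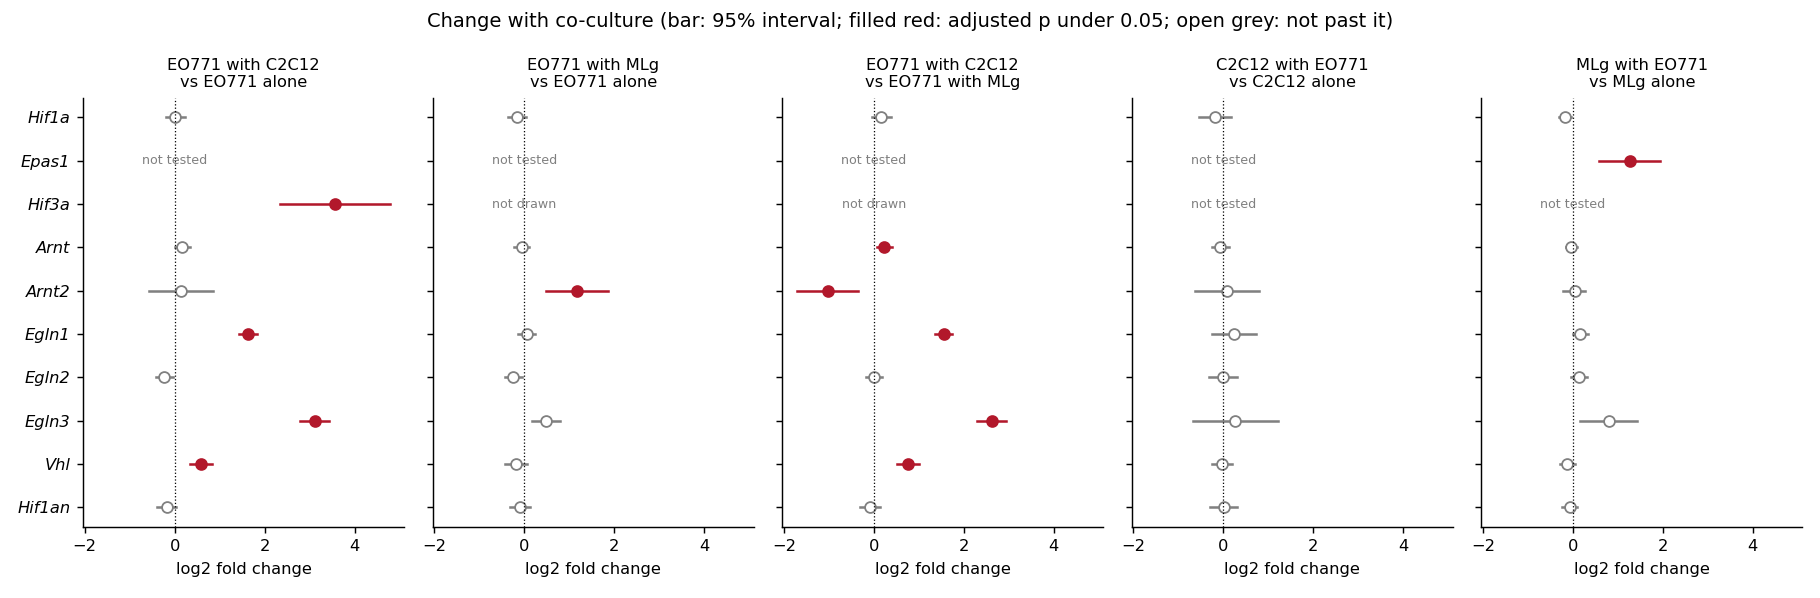
Log2 fold changes (x axis) of the 10 genes in the 5 co-culture comparisons, with 95% intervals, filled red where the adjusted p of edgeR's quasi-likelihood test was under 0.05 and open grey otherwise. In EO771 with C2C12 against EO771 alone, Hif3a (3.57), Egln3 (3.11), Egln1 (1.62) and Vhl (0.58) lie to the right of 0, and in C2C12 with EO771 every interval crosses 0. Hif3a is not drawn where EO771 with MLg, which had no Hif3a counts, enters the comparison.

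Egln3 made the largest change of the prolyl hydroxylases. EO771 with C2C12 held 131.7, 136, 152 and 219.7 CPM (R5-1, R5-2, R6-1 and R3-1), against 19.7, 16.0, 16.8 and 17.5 CPM in EO771 alone (R3-1, R3-2, R5-1 and R6-2). The groups lie far apart, with R3-1 the highest of the co-cultured libraries. The log2 change was 3.11 ± 0.168 (SE), an 8.66-fold rise (adjusted p = 6.86e-10). Within each R number that both groups hold, the ratio of mean CPM was between 7.96 and 12.3 for 3 R numbers, so the rise stood in each of them. EO771 with MLg held 28.6, 18.9, 29.5 and 20.6 CPM (R6-1, R5-1, R6-2 and R7-1), and its lowest library lay under the highest of EO771 alone. Against EO771 alone this was a log2 difference of 0.49 ± 0.159 (adjusted p = 0.0623), which did not pass the test. EO771 with MLg R5-1 and R7-1 were the lowest libraries of their group, so leaving either out raises its mean. Leaving out R5-1 or R7-1 gave 0.58 in either case (adjusted p = 0.0314 and 0.0349), and leaving out both gave 0.74 (adjusted p = 0.00619). With each library left out the difference ran from 0.40 to 0.58, and 6 of 8 such settings did not call it. DESeq2 called it (log2 0.51, adjusted p = 0.0231). Of 18 alternatives in all, 7 called it. Against EO771 with MLg, Egln3 was 6.17-fold higher in EO771 with C2C12 (log2 2.63 ± 0.164, adjusted p = 3.60e-09).

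Egln1 encodes the prolyl hydroxylase held to be the main one in cells with oxygen. EO771 with C2C12 held 232, 248, 276 and 260.4 CPM (R5-1, R5-2, R6-1 and R3-1), against 80.8, 78.6, 76.3 and 77.7 CPM in EO771 alone. No library of either group came near the other. The log2 change was 1.62 ± 0.0975, a 3.08-fold rise (adjusted p = 1.62e-09), and the within-R ratios ran from 3.15 to 3.56. EO771 with MLg held 88.6, 69.2, 91.8 and 75.3 CPM, which spread over both sides of EO771 alone, and the log2 difference of 0.06 ± 0.0955 did not pass the test (adjusted p = 0.788). The C2C12 partner itself averaged 120.6 ± 42.3 CPM of Egln1 and 89.9 ± 49.1 CPM of Egln3, and its Egln3 libraries overlapped those of EO771 with C2C12. At the highest sarcomere share, carried C2C12 RNA would give 20.0 CPM of Egln1 and 14.9 CPM of Egln3, and with C2C12 counts subtracted at the sarcomere share the log2 changes were 1.73 and 3.19 (adjusted p = 1.22e-07 and 1.12e-07).

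Egln2, which encodes PHD1, passed no co-culture test. It held 45.2, 48.4, 49.0 and 47.4 CPM in EO771 with C2C12, 39.8, 46.2, 45.1 and 47.4 CPM in EO771 with MLg, and 46.3, 52.3, 56.6 and 56.8 CPM in EO771 alone. EO771 alone R3-1 lay among the co-cultured libraries and the other 3 lay above them. The log2 differences from EO771 alone were -0.23 ± 0.0963 with C2C12 (adjusted p = 0.0708) and -0.24 ± 0.0962 with MLg (adjusted p = 0.149). Without EO771 alone R3-1, the difference with C2C12 was -0.30 and passed the test (adjusted p = 0.0301).

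**Figure D2:**
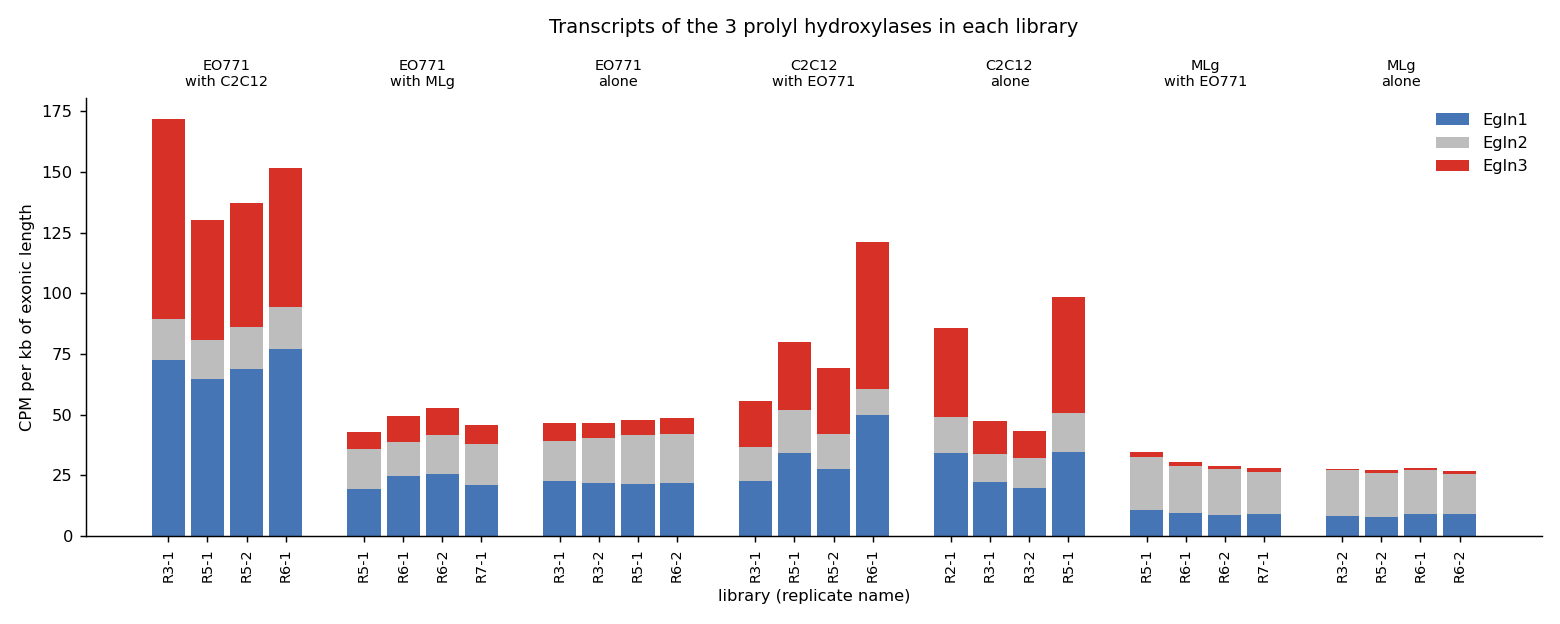
Stacked transcript levels of Egln1, Egln2 and Egln3 per library (y axis, CPM per kb of exonic length) for the 7 groups. The stacks of EO771 with C2C12 average 147.8 and are mostly Egln1 and Egln3, those of EO771 with MLg and EO771 alone average 47.7 and 47.3, and those of MLg are mostly Egln2.

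The make-up of the prolyl hydroxylase transcripts in EO771 differed with co-culture. Per kb of exonic length, the sum of Egln1, Egln2 and Egln3 was 147.8 ± 18.4 CPM per kb in EO771 with C2C12, 47.7 ± 4.36 in EO771 with MLg and 47.3 ± 0.999 in EO771 alone (SD, n = 4 each). Egln3 made up 40.3% ± 5.18 of that sum in EO771 with C2C12, against 13.9% ± 1.37 in EO771 alone, a difference of 26.3 percentage points. In EO771 with MLg the Egln3 share was 19.1% ± 2.67, 5.14 points above EO771 alone, and the share of EO771 with C2C12 lay 21.2 points above it. Each of these 3 pairs of groups was fully apart, and each gave an adjusted p = 0.0476 in an exact two-sided permutation test over 5 comparisons, whose smallest possible raw p is 0.0286 with 4 against 4 libraries. The share was 39.7% ± 7.31 in C2C12 with EO771 against 36.5% ± 10.9 in C2C12 alone (exact permutation adjusted p = 0.657). It was 5.37% ± 0.778 in MLg with EO771 against 3.52% ± 1.54 in MLg alone (exact permutation adjusted p = 0.107). MLg fibroblasts carried mostly Egln2, at 63.7% ± 1.66 and 65.3% ± 2.92 of the sum with EO771 and alone. In EO771 with C2C12, Egln2 made up 11.6% ± 1.25, against 40.0% ± 3.06 in EO771 alone.

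Hif3a encodes an alpha subunit of which short forms are known to restrain HIF. EO771 with C2C12 held 1.14, 1.01, 0.967 and 1.22 CPM (54, 28, 28 and 42 counts in R5-1, R5-2, R6-1 and R3-1), against 0.176, 0.0513, 0 and 0.112 CPM in EO771 alone (6, 2, 0 and 4 counts in R3-1, R3-2, R5-1 and R6-2). Every co-cultured library lay above every library of EO771 alone, at a low level throughout. The log2 change was 3.57 ± 0.62 (adjusted p = 4.11e-04), and the ratio of mean CPM was 12.8. Hif3a had counts in 18 of the 28 libraries, and none of these counts was odd, so they were read as steps of 2. EO771 with MLg held no Hif3a counts in any library, which allows up to 3 such steps, or 6 counts, per library (0.124 to 0.181 CPM). Against that floor, taken as the mean over libraries, Hif3a was at least 7.06-fold higher in EO771 with C2C12 than in EO771 with MLg. The edgeR test of any difference between these groups gave an adjusted p = 2.41e-05, and it does not test that bound. Against EO771 alone, Hif3a in EO771 with MLg was called lower (adjusted p = 0.0276), but no library of EO771 alone held more than 6 counts, so no fold is given. That call ended when EO771 alone R3-1 or R6-2, or EO771 with MLg R6-1, R6-2 or R7-1, was left out (adjusted p between 0.0536 and 0.0806). The C2C12 partner held little Hif3a, at 0.0639 CPM ± 0.0202 in C2C12 with EO771.

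Hif1a, the alpha subunit of HIF-1, had the highest mean level per kb of the HIF subunits in every group. EO771 with C2C12 held 381, 335, 344 and 413 CPM, EO771 with MLg 354, 288, 324 and 261 CPM, and EO771 alone 341, 359.8, 349.8 and 332 CPM. The groups overlapped, and EO771 alone was the tightest of them. Against EO771 alone the log2 difference was 0.01 ± 0.104 with C2C12 (adjusted p = 0.934, 95% interval -0.19 to 0.22) and -0.16 ± 0.104 with MLg (adjusted p = 0.431). Hif1a held 193, 136, 177 and 205 CPM in C2C12 with EO771, against 172, 228, 225 and 153 CPM in C2C12 alone (R2-1, R3-1, R3-2 and R5-1). The highest values of C2C12 alone were those of its R3 libraries, and the log2 difference of -0.19 ± 0.185 did not pass the test (adjusted p = 0.813). MLg with EO771 held 151, 150.7, 142 and 157 CPM, all under the 169, 168, 174 and 182 CPM of MLg alone, yet the log2 difference of -0.18 ± 0.0664 missed the threshold (adjusted p = 0.0902). DESeq2 gave -0.18 with an adjusted p = 0.0334, and with EO771 counts subtracted the difference was -0.31 (adjusted p = 0.0227). Hif1a shares 148 of its 5896 exonic bases with another gene on its strand and 330 with an antisense gene, and whether counting used strand was not given in the sources used here. Arnt2 and Egln2 share 214 and 11 bases with antisense genes.

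Epas1 encodes the alpha subunit of HIF-2, best known from endothelial cells. It was near its floor in EO771 and C2C12 and low in MLg. MLg with EO771 held 0.71, 0.939, 0.494 and 0.683 CPM (24, 54, 19 and 34 counts in R5-1, R6-1, R6-2 and R7-1), against 0.201, 0.332, 0.374 and 0.292 CPM in MLg alone (14, 22, 26 and 18 counts in R3-2, R5-2, R6-1 and R6-2). The groups did not overlap. The log2 change was 1.27 ± 0.344, a 2.41-fold rise (adjusted p = 0.0279), and the ratios within R5 and R6 were 2.14 and 2.15. The call was lost when any library of MLg alone, or R5-1 or R6-1 of MLg with EO771, was left out (log2 changes between 1.08 and 1.38, adjusted p between 0.0517 and 0.0922). In a fit of all 28 libraries the change was 1.24 and missed the threshold (adjusted p = 0.196). EO771 with MLg, the partner, had no Epas1 counts in any library. Over all 7 groups, Hif1a made up at least 99.35% of the alpha subunit transcripts per kb in every library, and Epas1 reached 0.653% in 1 library of MLg with EO771.

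**Figure D3:**
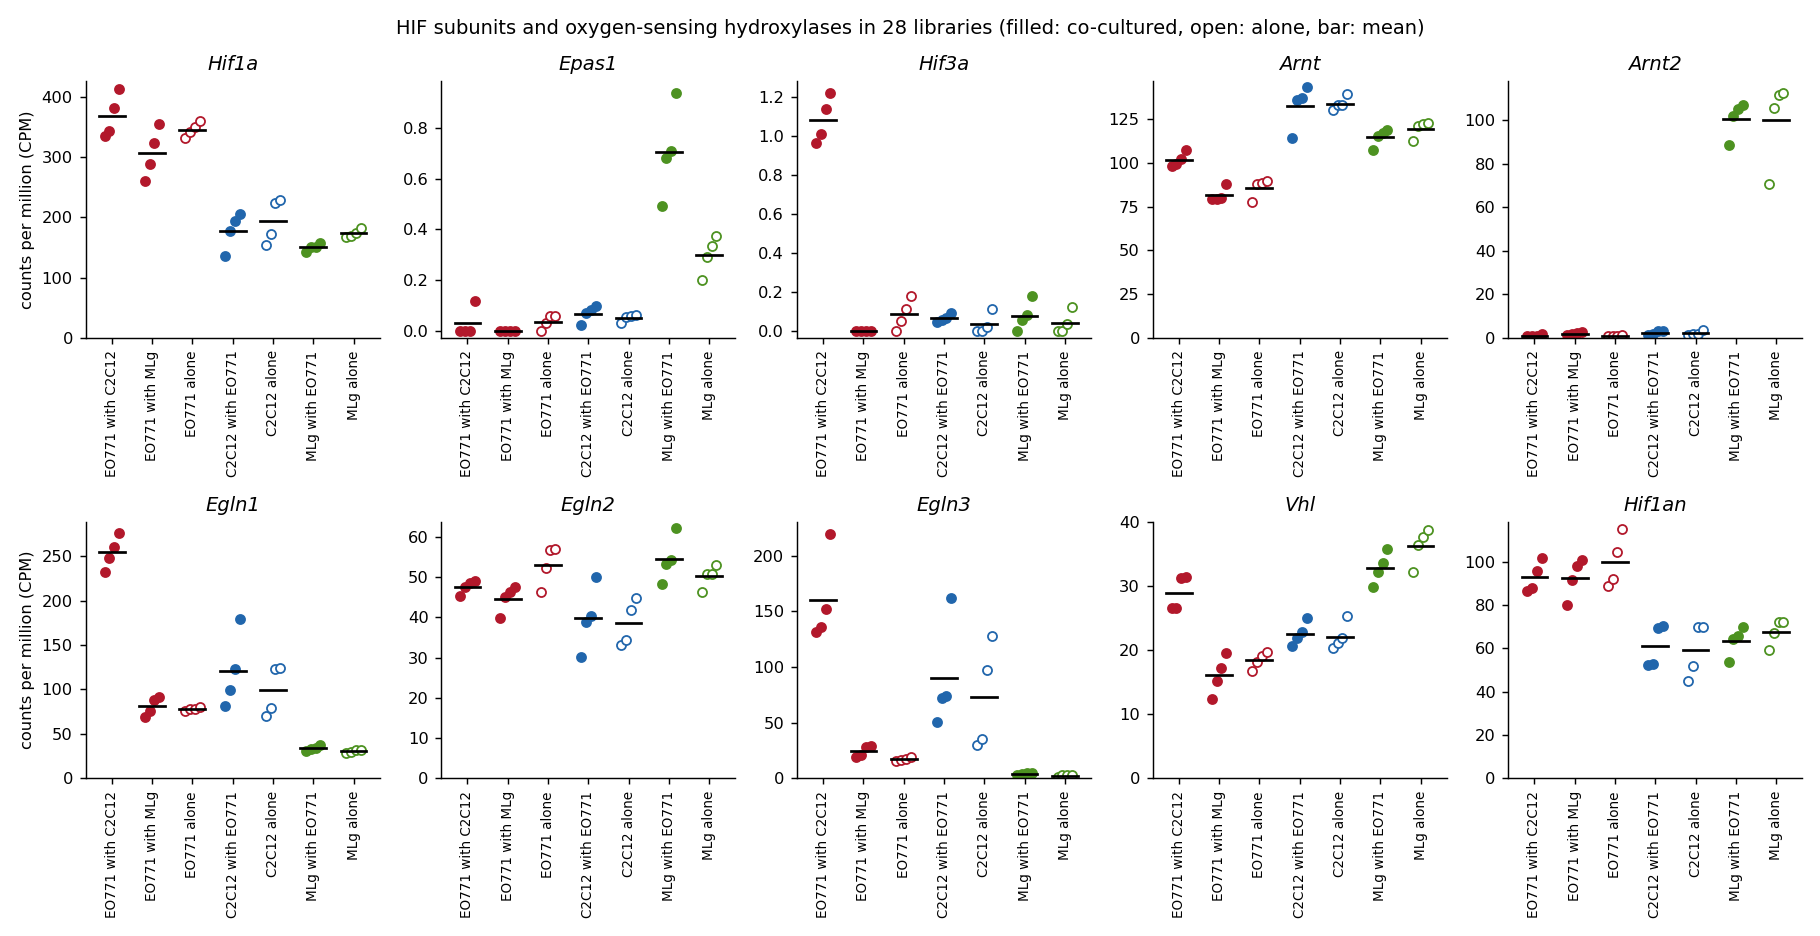
Level of each gene (y axis, CPM, linear from 0) in every library of the 7 groups, filled for co-cultured and open for cells alone, with a bar at the group mean. Egln1, Egln3 and Hif3a of EO771 with C2C12 stand above the other EO771 groups, Arnt2 is high in both MLg groups (between 70.7 and 112 CPM), and the C2C12 groups spread widely in Egln1 and Egln3.

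Arnt is the beta subunit common to the HIFs. EO771 with C2C12 held 99.6, 98.3, 102 and 107 CPM, EO771 with MLg 88.2, 79.2, 80.2 and 79.2 CPM, and EO771 alone 77.4, 88.0, 89.8 and 88.5 CPM. EO771 with C2C12 lay above both other groups in every library, by a small step. Against EO771 alone the log2 difference was 0.17 ± 0.0845 (adjusted p = 0.135). Against EO771 with MLg it was 0.23 ± 0.0845 and passed the test narrowly (adjusted p = 0.0494). That call ended without EO771 with C2C12 R5-1, R5-2, R6-1 or R3-1, and without EO771 with MLg R5-1, R6-2 or R7-1 (log2 0.20 to 0.25, adjusted p between 0.0693 and 0.134). It also ended with DESeq2 size factors (adjusted p = 0.0582) and with the even counts halved (adjusted p = 0.0539). Arnt averaged 133 ± 12.9 CPM in C2C12 with EO771 and 134 ± 3.96 CPM in C2C12 alone, and 115 ± 5.00 CPM in MLg with EO771 and 119.7 ± 4.95 CPM in MLg alone (SD, n = 4 each), with neither pair passing the test (adjusted p = 0.899 and 0.773).

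Arnt2, the second beta subunit, known mainly from neurons and kidney, set MLg apart from the other lines. Its level was 88.6, 105.0, 107 and 102 CPM in MLg with EO771, against 70.7, 106, 112 and 111 CPM in MLg alone, with R3-2 low. The log2 difference of 0.04 ± 0.126 did not pass the test (adjusted p = 0.882). In EO771 cells Arnt2 was near 1 CPM: 2.01, 2.44, 1.03 and 1.76 CPM in EO771 with MLg, against 1.14, 0.718, 0.799 and 0.589 CPM in EO771 alone. The groups overlapped at 1 library, and the log2 change of 1.17 ± 0.352 was called (adjusted p = 0.0406). MLg RNA at its mean share of 1.57% would carry 1.58 CPM of Arnt2 into these libraries, and with MLg counts subtracted the sign turned (log2 -1.40, adjusted p = 0.363). The call also ended without EO771 alone R3-2, R5-1 or R6-2, or EO771 with MLg R6-1, R5-1 or R7-1 (log2 0.98 to 1.21, adjusted p between 0.0587 and 0.118). Arnt2 was lower in EO771 with C2C12 (mean 0.949 CPM) than in EO771 with MLg (mean 1.81 CPM), at log2 -1.02 ± 0.35 (adjusted p = 0.0366), and that difference too turned round with the partner counts subtracted (log2 1.54, adjusted p = 0.147). Without EO771 with C2C12 R5-1, R5-2 or R6-1, or EO771 with MLg R6-1 or R5-1, it was between -0.84 and -0.98 and missed the threshold (adjusted p between 0.0686 and 0.107).

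Vhl encodes the substrate-binding subunit of the ligase that takes up hydroxylated HIF alpha. It held 26.6, 26.6, 31.4 and 31.3 CPM in EO771 with C2C12, 19.5, 12.4, 17.2 and 15.2 CPM in EO771 with MLg, and 19.0, 16.8, 19.7 and 18.2 CPM in EO771 alone. EO771 with C2C12 lay above both other groups in every library, and EO771 with MLg overlapped EO771 alone. The log2 change with C2C12 was 0.58 ± 0.126 against EO771 alone, a 1.49-fold rise (adjusted p = 0.00169), with within-R ratios between 1.35 and 1.75. Against EO771 with MLg it was 0.76 ± 0.126 (adjusted p = 2.27e-04), and EO771 with MLg differed from EO771 alone by -0.19 ± 0.126 (adjusted p = 0.455). The C2C12 partner held 22.6 CPM ± 1.83, which is less than the Vhl level of EO771 with C2C12.

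Hif1an, the asparaginyl hydroxylase, passed no co-culture test. It averaged 93.0 ± 7.16 CPM in EO771 with C2C12, 92.7 ± 9.29 in EO771 with MLg and 100.1 ± 12.0 in EO771 alone (SD, n = 4 each). The log2 differences from EO771 alone were -0.18 ± 0.11 with C2C12 (adjusted p = 0.226) and -0.10 ± 0.11 with MLg (adjusted p = 0.699). In the host lines its log2 differences with co-culture were 0.01 ± 0.156 in C2C12 and -0.07 ± 0.0875 in MLg (adjusted p = 0.997 and 0.635).

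Set per kb of exonic length, the order of the genes within EO771 differed with C2C12. In EO771 with C2C12, Egln1 stood first at 70.7 ± 5.19 CPM per kb, then Hif1a at 62.4 ± 6.09 and Egln3 at 60.1 ± 15.3, and these 3 overlapped. In EO771 alone, Hif1a stood first at 58.6 ± 2.01, ahead of Egln1 at 21.8 ± 0.532, Egln2 at 18.9 ± 1.77, Hif1an at 15.2 ± 1.82 and Arnt at 10.7 ± 0.714, with Egln3 at 6.58 ± 0.589 and Vhl at 6.15 ± 0.418. Across groups, the mean level of Egln3 was highest in EO771 with C2C12, then in C2C12 with EO771 and C2C12 alone, and these neighbours overlapped. EO771 with MLg and EO771 alone followed, and the MLg groups were lowest. For Egln1, EO771 with C2C12 lay above every library of all other groups.

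In C2C12, the libraries of each group varied widely in Egln1 and Egln3. Egln3 held 50.9, 74.2, 72.7 and 162 CPM in C2C12 with EO771 (R3-1, R5-1, R5-2 and R6-1), against 97.5, 35.4, 30.4 and 128 CPM in C2C12 alone (R2-1, R3-1, R3-2 and R5-1). The R3 libraries were the lowest of both groups. The log2 difference of 0.27 ± 0.481 did not pass the test (adjusted p = 0.917, 95% interval -0.67 to 1.21), and it had opposite signs within R numbers, with a ratio of 1.55 in R3 and 0.575 in R5. Egln1 held 81.5, 122.6, 99.4 and 179 CPM in C2C12 with EO771, against 123, 79.2, 70.6 and 124 CPM in C2C12 alone, again with the R3 libraries lowest. Its log2 difference was 0.23 ± 0.251 (adjusted p = 0.835). Without the R3 libraries the log2 differences were -0.16 ± 0.339 for Egln3 and 0.09 ± 0.238 for Egln1 (adjusted p = 0.974 and 0.982). Fitted by edgeR with the R number as a block, they were -0.12 ± 0.251 for Egln3 and -0.05 ± 0.147 for Egln1 (adjusted p = 0.963 and 0.979). The summed level of the 12 myotube markers moved with the R number too. It was 518 CPM in the R3 library of C2C12 with EO771 and 181 and 464 CPM in the R3 libraries of C2C12 alone, against 1590 to 2220 and 3160 to 3720 CPM in the others. The part of these markers in the Egln1 and Egln3 values was not tested.

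**Figure D4:**
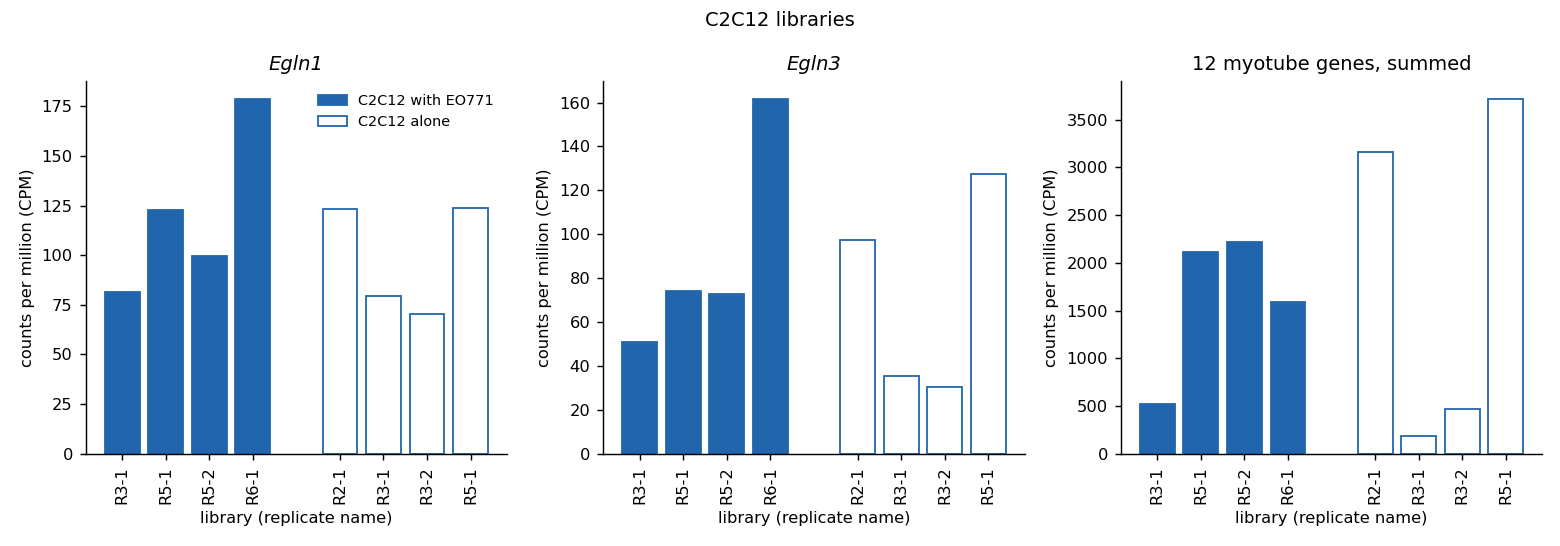
Egln1, Egln3 and the summed level of 12 myotube marker genes (y axes, CPM) in each C2C12 library, filled for C2C12 with EO771 and open for C2C12 alone. The R3 libraries are the lowest of each group in all 3 panels, with Egln3 at 50.9 CPM with EO771 and at 35.4 and 30.4 CPM alone.

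In MLg, Egln3 was low, at 4.85, 5.11, 3.38 and 4.12 CPM with EO771, against 0.918, 3.20, 2.89 and 3.24 CPM alone, where R3-2 was low. The groups did not overlap, but the log2 difference of 0.80 ± 0.321 did not pass the test (adjusted p = 0.118). EO771 RNA at its mean share of 8.47% would carry 2.07 CPM, and with EO771 counts subtracted the difference was 0.03 ± 0.367 (adjusted p = 0.976). Egln1 averaged 33.9 ± 2.87 CPM in MLg with EO771 and 30.7 ± 1.84 CPM in MLg alone (log2 0.17 ± 0.0858, adjusted p = 0.211).

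The lines grown alone differed in most members, as in most genes. C2C12 alone against MLg alone called 7 of 9 members, where 61.9% of all genes were called. Egln3 was 31.3-fold and Egln1 3.59-fold higher in C2C12 (log2 4.97 ± 0.485 and 1.84 ± 0.145), Arnt was higher by 0.32 and Hif1a by 0.33, and Arnt2, Epas1 and Vhl were lower (log2 -5.47, -2.34 and -0.55). The Hif1a difference fell to 0.17 when libraries were scaled by totals alone (adjusted p = 0.203), a scaling that moved the median of all genes to -0.187, against -0.029 in the TMM fit. It also missed the threshold without any 1 of C2C12 alone R3-1 or R3-2 and the 4 MLg alone libraries (log2 0.18 to 0.33, adjusted p between 0.0755 and 0.195). Egln2, at log2 -0.23 (adjusted p = 0.054), gained a call with library totals (-0.38, adjusted p = 0.00611), with DESeq2 (adjusted p = 0.049), which called 8 members, and without C2C12 alone R2-1 or R5-1 or MLg alone R6-2 (-0.28 to -0.31, adjusted p between 0.0127 and 0.0381). EO771 alone against C2C12 alone called 8 of 9, where 78.2% of all genes were called, with Hif1a, Hif1an and Egln2 higher (log2 0.66, 0.61 and 0.31) and Egln3, Arnt2, Arnt, Egln1 and Vhl lower (log2 -2.19, -1.47, -0.80, -0.49 and -0.42). The median of all genes in that comparison was -0.118, and 0.019 with library totals alone, under which Egln1 was at -0.34 and missed the threshold (adjusted p = 0.0573). The Egln1 levels of these groups overlapped. C2C12 alone R3-1 and R3-2 held 79.25 and 70.58 CPM, against 76.29 to 80.85 CPM in EO771 alone. Without the filter, Egln2 was at 0.24 and missed the threshold (adjusted p = 0.0611). EO771 alone against MLg alone called 8 of 9, where 77.6% of all genes were called, with Egln3, Egln1, Hif1a and Hif1an higher (log2 2.78, 1.35, 1.00 and 0.57) and Arnt2, Epas1, Vhl and Arnt lower (log2 -6.94, -3.01, -0.97 and -0.48).

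Other genes of the pathway were counted from lists that were drawn up with earlier results of these data known. Of 34 known HIF target genes, members excluded, 28 rose and 3 fell in EO771 with C2C12 against EO771 alone, with a median log2 change of 1.20, beside 33.0% called and a median of 0.001 over all genes. The largest changes by the rule were those of Lox, Bnip3 and Adm (log2 5.37, 3.21 and 2.48). Of Lox, which crosslinks collagen, carried C2C12 RNA at its mean share would give 13.5 CPM, against a measured mean of 10.2 CPM in EO771 with C2C12, and of the mitophagy receptor Bnip3 it would give 1.02 of 33.3 CPM. The C2C12 partner held 100.8 CPM of Bnip3, and what the higher sarcomere share would carry was not computed for it. The 3 that fell, named after their values were seen, were Pfkfb3, Car12 and Tfrc (log2 -0.42, -1.32 and -0.51). In EO771 with MLg against EO771 alone, 2 rose and 5 fell, with a median of -0.07, beside 9.59% of all genes called. Among the 2 that rose was Lox (log2 4.85), which averaged 6.62 CPM there, and MLg RNA at its mean share would carry 7 CPM. Between EO771 with C2C12 and EO771 with MLg, 27 were higher and 1 lower in EO771 with C2C12, with a median of 1.23, beside 27.7% of all genes called.

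In C2C12 with EO771 none of the 34 HIF target genes passed, with a median log2 difference of 0.09, while 3 had an unadjusted p under 0.05 with edgeR and DESeq2 called 1. In MLg with EO771, 11 of 34 rose and 4 fell, with a median of 0.12, beside 14.7% called and a median of -0.005 over all genes. The largest of these rises were in genes that EO771 holds at far higher levels. Car12, a carbonic anhydrase, averaged 5.17 CPM in MLg with EO771 and 0.164 CPM in MLg alone, and EO771 RNA at its mean share would carry 5.04 CPM. Slc16a3, a lactate exporter, averaged 32.2 CPM in MLg with EO771 and 1.48 CPM in MLg alone, and 37.4 CPM would be carried. Tfrc, the transferrin receptor, averaged 64.9 CPM in MLg with EO771 and 22.8 CPM in MLg alone, and 48.6 CPM would be carried.

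The partners of VHL and other regulators of HIF turnover were counted likewise. Of 15 tested in EO771 with C2C12 against EO771 alone, none rose and 3 fell, with a median of -0.13, where 33.0% of all genes were called. Siah1b, of a ligase family known to act on prolyl hydroxylases, averaged 6.80 ± 1.34 CPM against 11.5 ± 0.361 CPM (log2 -0.83 ± 0.153, adjusted p = 4.07e-04). Usp20, a deubiquitinase, and Hsp90ab1, a chaperone, fell too (log2 -0.42 and -0.34, adjusted p = 0.00372 and 0.0273). In MLg with EO771, where 14.7% of all genes were called, Hsp90aa1 and Elob rose out of 16 (log2 0.52 and 0.39, adjusted p = 0.00535 and 0.0288), and EO771 RNA would carry 139 of 343 CPM of Hsp90aa1 and 11.7 of 127 CPM of Elob. Of 11 coactivators and inhibitors, Sirt1 and Cdk8 fell in EO771 with C2C12 (log2 -0.51 and -0.29, adjusted p = 0.00248 and 0.0126), and none rose, beside the same 33.0%.

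Genes that supply the hydroxylases with 2-oxoglutarate, iron and ascorbate were counted too. Of 20 tested in EO771 with C2C12 against EO771 alone, 3 rose and 3 fell, with a median of -0.07, where 33.0% of all genes were called. Idh1, which makes 2-oxoglutarate in the cytosol, averaged 99.1 ± 9.07 CPM against 63.1 ± 5.62 CPM (log2 0.57 ± 0.129, adjusted p = 0.0021). Slc25a11, the mitochondrial carrier of 2-oxoglutarate, rose too (log2 0.53, adjusted p = 0.00228), and Tfrc fell (log2 -0.51, adjusted p = 0.00915). The C2C12 partner held 323.6 CPM of Idh1 and 63.3 CPM of Slc25a11. At its mean share, carried C2C12 RNA would give 3.28 and 0.641 CPM of them. What it would give at the higher sarcomere share was not computed for these genes. In MLg with EO771, 3 of 20 rose and 2 fell, where 14.7% of all genes were called, among them Tfrc, which is on the list of HIF targets as well, and Idh1 (log2 -0.58, adjusted p = 6.61e-04). Among other factors of the bHLH-PAS family, to which the HIF subunits belong, Arntl2 rose in C2C12 with EO771 (7.60 ± 1.22 CPM against 3.61 ± 0.368 CPM in C2C12 alone, log2 1.02 ± 0.176, adjusted p = 0.0124), 1 of 9 tested, where 2.68% of all genes were called, and EO771 RNA would carry 1.64 CPM of it. In EO771 with MLg against EO771 alone, 1 of 6 rose and 1 fell, where 9.59% of all genes were called. The one that rose, named after its values were seen, was Sim2 (0.589 ± 0.248 CPM against 0.0353 ± 0.028 CPM in EO771 alone, log2 3.96, adjusted p = 7.33e-04), which stood at 41.5 CPM in MLg with EO771. The mean MLg share in EO771 with MLg was 1.57%. What carried MLg RNA would give of Sim2 was not computed, so a change in EO771 itself is not shown by this rise. Arntl, of the circadian clock, fell (23.4 ± 1.20 CPM against 35.2 ± 2.47 CPM in EO771 alone, log2 -0.58, adjusted p = 4.86e-04).

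The genes whose levels ran most like those of Egln1 and Egln3 were sought by Pearson's correlation of log2 CPM, as a description only, since the libraries share line, group and depth. Over the 12 EO771 libraries, among 9726 genes, Egln1 ran most like Plekha2 (0.996), Pgm1 (0.996) and Pfkl (0.994), and Egln3 like Ifi204 (0.99), Pgm1 (0.99) and Selenbp1 (0.988). Over all 28 libraries, among 10903 genes, Egln1 ran most like Gys1 (0.977), Tpi1 (0.969) and Pfkl (0.965), and Egln3 like Gpi1 (0.969), Carhsp1 (0.966) and Mgarp (0.963). Vhl over the 12 EO771 libraries ran most like Kremen1 (0.983), Ndrg2 (0.977) and Map2k1 (0.974). For Egln2 the highest values were lower, at 0.924 over the EO771 libraries (Vps37c) and 0.871 over all libraries (Med25).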

How the data were processed

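Polyadenylated RNA was sequenced, and the authors deposited unnormalized counts for each gene and library. Tools named in the submitters' processing notes, with no role given, include STAR 2.7.10a, fastp, Subread 2.0.1, featureCounts and DESeq2. Genome build and strand setting were not given in the sources used here. Every one of the 55536 Ensembl identifiers had an entry in GENCODE M21 (GRCm38), the source of symbols and exonic lengths. EO771 with C2C12 R5-1 and R5-2 have swapped names in their file names, and GEO's own sample records were used.

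CPM were computed from the deposited counts and library totals. Fold changes came from edgeR 4.0.16 (R 4.3.3), with TMM scaling, filterByExpr (minimum count 10, minimum total 15), quasi-likelihood F tests and Benjamini-Hochberg adjustment over all genes, so they can differ slightly from ratios of CPM. Calls are at an adjusted p under 0.05. The 12 EO771 libraries, the 8 C2C12, the 8 MLg, the 16 host libraries and the 12 libraries of lines alone were fitted separately. The test was also run on simulated data. Alternatives were DESeq2 1.42.0, other scalings, no filter, the R number as a block, halved even counts, subtracted partner counts, all 28 libraries and each library left out. After the data were seen, fits of only the compared groups were added. Partner shares are medians over genes with at least 10 CPM in the partner and at most 0.1 CPM in the recipient alone.

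Libraries with the same R number ran together most in the C2C12 comparison. There, deviations from group means correlated between 0.283 and 0.591 in all 4 same-numbered pairs, and between -0.675 and 0.296 in the others. Between EO771 groups, same-numbered pairs correlated weakly, between 0.0181 and 0.155, and the others between -0.15 and 0.11. In MLg, same-numbered pairs ran from -0.146 to 0.0863. The meaning of the R numbers is not stated. Floors are 3 counts, or 6 for Hif3a, whose counts come in steps of 2 (chosen after seeing the data), and floors and intervals cover counting error or the spread between libraries only. The members and the gene lists were chosen with earlier results of these data known. Named list genes are up to 3 called genes per list and comparison with the largest change at a mean of at least 5 CPM, of which a subset is printed.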

Additional observations from a re-analysis of the deposited data

Results flagged for a closer look

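Of 75 sets of 4 libraries examined for each gene or share, 7 held 1 library far from the other 3 by Dixon's criterion, and chance gives about 1 in 20. In EO771 with C2C12, R3-1 held 0.117 CPM of Epas1 (4 counts) where the other 3 held none. In the same group R3-1 had an Egln3 share of prolyl hydroxylase transcripts of 48.0%, where the others lay between 37.3% and 38.0%. For Arnt, EO771 with MLg R6-1 was high at 88.2 CPM (others 79.2 to 80.2), EO771 alone R3-1 was low at 77.4 CPM (others 88.0 to 89.8), and MLg alone R3-2 was low at 112 CPM (others 121 to 123). MLg alone R3-2 was low in Arnt2 too, at 70.7 CPM (others 106 to 112), and in Egln3, at 0.918 CPM (others 2.89 to 3.24). In all, 3 of the 7 values came from MLg alone R3-2.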

How the results depend on the processing

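Of the alternative fold changes computed for the members, 1334 stayed on their side of the threshold, 54 lost the threshold, 21 gained it and 3 reversed. A change of sign was counted as reversed only where the main or the alternative value was called. Values called in neither could change sign and still count among the 1334. Egln3 in C2C12 with EO771 against C2C12 alone, for example, ran from -0.18 to 0.66 with each library left out. The reversed ones are Arnt2 with partner counts subtracted, at -1.40 in EO771 with MLg against EO771 alone, and at 1.54 (1.32 at the sarcomere share) in EO771 with C2C12 against EO771 with MLg. The number of members called in EO771 with MLg against EO771 alone was 2, and 3 with DESeq2 or no filter (Egln3 added), 1 with partner counts subtracted, with all 28 libraries, or without R5-1 and R7-1 together, and 0 to 2 with each library left out. In MLg it was 1, and 2 with DESeq2, with no filter or with partner counts subtracted, 0 with all 28 libraries, and 0 to 1 with each library left out. With the R number as a block, a pairing seen most clearly in C2C12, it was 0 in MLg (Epas1 1.16, adjusted p = 0.0858). The block also changed calls for Egln2 and Hif1an in EO771 with C2C12 against EO771 alone (-0.27 and -0.24, both lower), for Egln3 (0.65, called) and Hif3a (not called) in EO771 with MLg, and for Arnt between the co-cultured EO771 groups (0.22, not called), and for Hif1a in C2C12 alone against MLg alone (0.34, not called). In C2C12, where the pairing was clearest, the block left 0 members called. With each library left out, the Egln3 share differed by 23.75 to 27.32 points (EO771 with C2C12 against EO771 alone), 4.264 to 5.972 (EO771 with MLg against EO771 alone) and 18.61 to 22.19 (EO771 with C2C12 against EO771 with MLg). In that order, the share lost the threshold in 4, 6 and 2 of 8 such settings (exact permutation adjusted p between 0.0714 and 0.107). The adjustment ran over 5 comparisons, so each adjusted p depends on the raw p of the others too. Over all genes, 445 calls in C2C12 became 749 with DESeq2, 125 with partner counts subtracted and 1176 with all 28 libraries, and 2472 in MLg became 778 with partner counts subtracted and 1569 and 1627 without MLg alone R6-2 and R6-1. Partner subtraction gave 863 calls, against 1515, in EO771 with MLg against EO771 alone. The difference of host responses had 343 calls, and 39 with partner counts subtracted, 752 with DESeq2 and 549 with all 28 libraries. Of the calls in EO771 with C2C12 against EO771 alone, 56.7% were higher, and 67.3% with library totals alone, and against EO771 with MLg 54.2% and 68.7%. In EO771 with MLg against EO771 alone 62.4% were higher, 45.1% with partner counts subtracted and 79.7% with all 28 libraries. The causes were not tested. Genes near 1 CPM (Arnt2 in EO771, Hif3a, Epas1) rest on few counts.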
